A study of Mus musculus with 12 samples.

Results

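Kit and Cables1 were described in cultured mouse cytotoxic T lymphocytes (CTL), effector CD8+ T cells obtained by activating T cells and keeping them in IL-2 with IL-12. They were chosen by their measured response: among the 13283 mRNA quantified, they had the largest called rises in abundance when CTL without FOXO1 were treated with an inhibitor of PI3K p110δ, so they are 2 of 13283 genes. The 4 groups, of 3 libraries each, were WT, from Gzmb cre+ mice; FOXO1-GFP KO, from FOXO1-GFPfl/fl Gzmb cre+ mice; and the same genotypes after 24 h with 10 µM IC87114 (WT+PI3Kdi and FOXO1-GFP KO+PI3Kdi), with DMSO as the vehicle in the groups without inhibitor. All mice were female, every group carried the Cre recombinase, and CTL were sorted as live CD8+ cells. The Cre is driven from the granzyme B promoter, so that Foxo1 is deleted only once T cells are activated, and FOXO1-GFP KO cells were also sorted as GFP negative.

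KIT is the receptor tyrosine kinase for stem cell factor. It recruits PI3K, Grb2 and Src family kinases to its phosphorylated cytoplasmic tail, and is known for its roles in haematopoietic progenitors, mast cells, melanocytes and germ cells rather than in mature T cells. CABLES1 is an adaptor that links cyclin-dependent kinases with the tyrosine kinases that phosphorylate them, such as ABL with CDK5 and WEE1 with CDK2. It also binds the p53 protein family, and it is held by 14-3-3 proteins when phosphorylated by AKT, the kinase that acts below PI3K. FOXO1, a transcription factor, is excluded from the nucleus by AKT.

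Kit (ENSMUSG00000005672) lies on the plus strand of GRCm38 at chr5:75574916-75656722, and the values are per kilobase of its 8911 bp of exons. The 179 bases just before its annotated first exon, chr5:75574737-75574915, are shown because they are the part of the promoter entry used that holds no exon. The RefSeq promoter set used here held 2 entries for Kit, the first by position being shown, and 0 for Cables1. The sequence is on GRCm38.p6, plus strand, and the capitals mark a GC box.
Kit promoter: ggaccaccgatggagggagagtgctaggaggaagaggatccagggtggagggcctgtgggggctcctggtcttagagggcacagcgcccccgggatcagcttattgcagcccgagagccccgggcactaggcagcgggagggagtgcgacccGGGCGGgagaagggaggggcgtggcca
The window was 69.3% G and C, against a median of 51.4% over 32851 RefSeq promoter windows of the same length, and 90.8% of these windows had a lower share. Both strands were searched for 6 motifs. The GC box GGGCGG was found 1 time, at position 75574889, and 20.9% of all windows hold it. The letters of a FOXO motif (GTAAACA, in 2.36% of windows), a GATA motif (AGATAA, 7.68%), an E-box (CACGTG, 3.67%), a TCF motif (CTTTGA, 10.8%) and an AP-1 motif (TGANTCA, 4.89%) were not in this window.

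The genotype labels were checked with Foxo1 first. Its FPKM, the fragments counted per kilobase of exon after scaling each library to the same depth, was 9.99, 5.77 and 5.79 in WT and 10.46, 5.84 and 7.50 in WT+PI3Kdi. It was 0.58, 1.08 and 1.44 in the vehicle libraries of FOXO1-GFP KO, against 0.61, 1.06 and 1.75 in those with PI3Kdi. The genotypes did not overlap, and Foxo1 reads remained in every FOXO1-GFP KO library. Depth was estimated from steps in the FPKM of short genes, as counted reads per library after the scaling between libraries by the authors. It was higher in WT (25.1 to 48.0 M reads, M for 1e6) than in WT+PI3Kdi (15.2 to 19.0 M). It spanned 12.9 to 32.8 M in FOXO1-GFP KO libraries with vehicle and 17.7 to 30.6 M in those with PI3Kdi.

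Kit mRNA was low in CTL and was higher with PI3Kdi in both genotypes. Its FPKM was 0.86, 0.70 and 0.54 in replicates 1, 2 and 3 of WT, which corresponds to 193, 299 and 134 reads. In WT+PI3Kdi it was 1.15, 0.96 and 1.32, or 195, 130 and 181 reads. Every WT+PI3Kdi library was above every WT library, as was so for 4.43% of all genes. In FOXO1-GFP KO it was 0.33, 0.46 and 0.29, the lowest values of the series, from 66, 134 and 33 reads. In FOXO1-GFP KO+PI3Kdi it was 1.17, 1.13 and 1.07, from 319, 212 and 168 reads, and these libraries did not overlap those of FOXO1-GFP KO, which were lower throughout for 5.28% of all genes. The exact Poisson 95% interval, which covers counting error only, was 0.198 to 0.404 FPKM for the library with 33 reads and 0.913 to 1.24 FPKM for that with 168. Within a library, Kit stood above between 9.61% and 26.0% of the quantified genes, so it was among the less abundant mRNA in every group.

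Cables1 (ENSMUSG00000040957) lies on the plus strand at chr18:11839220-11945630 and has 3839 bp of exons. Its mRNA was also higher with PI3Kdi in both genotypes, and was most abundant when FOXO1 was absent and PI3K p110δ was inhibited. Its FPKM was 1.60, 1.5 and 1.29 in WT, from 154, 276 and 138 reads, and 2.30, 3.28 and 2.98 in WT+PI3Kdi, from 168, 192 and 176 reads. Every WT+PI3Kdi library was above every WT library, as for 4.43% of all genes. In FOXO1-GFP KO it was 2.67, 1.57 and 2.09, from 231, 197 and 103 reads. In FOXO1-GFP KO+PI3Kdi it was 5.76, 5.14 and 6.14, from 677, 416 and 416 reads. All 3 libraries of the latter group were above those of FOXO1-GFP KO, as for 5.28% of all genes, and above those of WT+PI3Kdi, as for 6.85%. Cables1 stood above between 25.5% and 55.2% of genes in a library, a middle position that it reached in FOXO1-GFP KO+PI3Kdi.

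**Figure D1:**
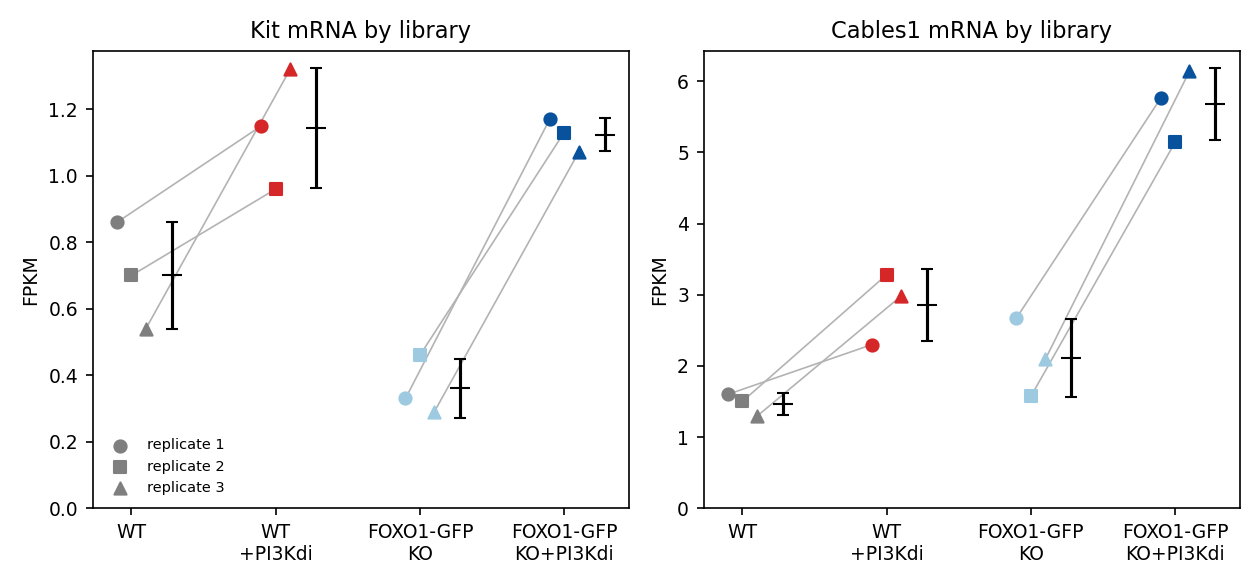
Kit (left) and Cables1 (right) mRNA in FPKM (y axis, from 0) in the 12 libraries, by group. Points are libraries with the marker giving the replicate number, grey lines join libraries of the same number within a genotype, and bars are the mean ± SD of 3 libraries; Kit reached 0.96 to 1.32 FPKM with PI3Kdi in both genotypes, whereas Cables1 reached 2.30 to 3.28 with PI3Kdi in WT but 5.14 to 6.14 in FOXO1-GFP KO.

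Ordered by mean level, Kit was at 1.14 ± 0.180 FPKM in WT+PI3Kdi, close to FOXO1-GFP KO+PI3Kdi at 1.12 ± 0.0503, groups that overlapped, then at 0.70 ± 0.16 in WT and 0.36 ± 0.0889 in FOXO1-GFP KO (SD, n = 3 for each). WT and FOXO1-GFP KO did not overlap. The order for Cables1 was another: 5.68 ± 0.505 FPKM in FOXO1-GFP KO+PI3Kdi, then WT+PI3Kdi at 2.85 ± 0.502, FOXO1-GFP KO at 2.11 ± 0.550 and WT at 1.46 ± 0.158. Here WT+PI3Kdi overlapped FOXO1-GFP KO, and FOXO1-GFP KO overlapped WT. In bulk samples, more cells with an mRNA and more of it per cell cannot be told apart.

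The response of WT CTL was the comparison in which Kit and Cables1 could be tested, since the means of these libraries were not used to choose them; its error was estimated over all 12 libraries, FOXO1-GFP KO included. The ratio of mean FPKM, WT+PI3Kdi over WT, was 1.63 for Kit and 1.95 for Cables1. As log2(FPKM + 0.1), a scale on which changes of scarce mRNA appear smaller, the difference was 0.65 for Kit (SE 0.20, 95% interval 0.21 to 1.08) and 0.91 for Cables1 (SE 0.20, 0.48 to 1.34). The limma fit of group means, with Benjamini-Hochberg adjustment over 13283 genes, gave an adjusted p of 0.478 for Kit (unadjusted p 0.00770) and 0.156 for Cables1 (unadjusted p 0.000707), so 0 of 2 were called at an adjusted p under 0.05 and a fold change over 1.5. Fitted to the 6 WT and WT+PI3Kdi libraries alone, limma gave adjusted p of 0.747 and 0.348. The fit to all 12 libraries called 0.0753% of all genes as higher in WT+PI3Kdi and 0.0979% in either direction, and that to the 6 libraries called 0. With the replicate number as a block within each genotype, the limma adjusted p was 0.0211 for Kit and 0.00164 for Cables1, and 2 of 2 were called, where 1.53% of all genes were called higher. With the block as fixed terms the adjusted p of Kit was 0.0765, so its call was lost, and that of Cables1 was 0.0132. Both forms of the block drew their error from all 12 libraries, including the FOXO1-GFP KO libraries used for the choice. A fit with the block to the WT and WT+PI3Kdi libraries alone was not run. The rise of Kit was the 221st and that of Cables1 the 91st in size of 13283, that is, 1.66% and 0.678% of genes rose more.

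The pairs of libraries with the same replicate number all moved in the same direction. In WT, the ratio of Kit FPKM with PI3Kdi to that without was 1.34, 1.37 and 2.44 in pairs 1, 2 and 3, and that of Cables1 was 1.44, 2.19 and 2.31. The rise of Kit in WT was thus uneven, with pair 3 well above the others, and that of Cables1 was smallest in pair 1. With the block, leaving out pair 1, 2 or 3 of WT in turn gave Kit differences of 0.78, 0.77 and 0.39 with limma adjusted p of 0.0580, 0.0598 and 0.181, so the call was lost each time, and without pair 3 the difference was also under the fold threshold, 0.585 on this scale. The same omissions gave Cables1 differences of 1.11, 0.82 and 0.79 with adjusted p of 0.00463, 0.0317 and 0.0328, and the call was kept.

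The FOXO1-GFP KO response is the one by which Kit and Cables1 were chosen, and its values are given without a test. The ratio of mean FPKM, FOXO1-GFP KO+PI3Kdi over FOXO1-GFP KO, was 3.12 for Kit and 2.69 for Cables1, and the differences on the log2 scale were 1.43 and 1.41 (SE 0.20 for each). The pairs gave ratios of 3.55, 2.46 and 3.69 for Kit and 2.16, 3.27 and 2.94 for Cables1. The limma fit of group means to all 12 libraries called 0.0452% of genes, each of them higher with PI3Kdi. The next called rise, just outside the choice, was 2610300M13Rik at 1.22, followed by Tnfrsf26 at 0.99, Prnp at 0.94 and Pdcd4 at 0.91. By size alone Kit was the 5th and Cables1 the 7th. Irs2, an insulin receptor substrate that recruits PI3K, stood between them at 1.42 and was not called.

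**Figure D2:**
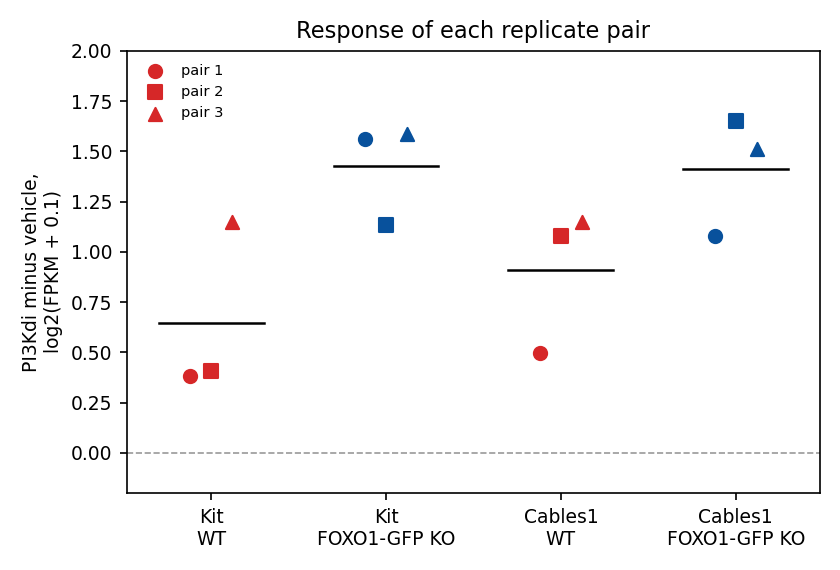
Difference with PI3Kdi in log2(FPKM + 0.1) (y axis) for each pair of libraries with the same replicate number, for Kit and Cables1 in WT (red) and FOXO1-GFP KO (blue). Lines are means of 3 pairs; all 12 points are above 0, and for Kit in WT pairs 1 and 2 (0.38 and 0.41) lie apart from pair 3 (1.15).

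The 2 genes differed in how they stood between genotypes, again as a description only, since these contrasts share libraries with the one that chose them. Without PI3Kdi, mean Kit in FOXO1-GFP KO was 0.514 times that in WT, a log2 difference of -0.80 with no overlap, whereas mean Cables1 was 1.44 times that in WT, a log2 difference of 0.47 with overlap. With PI3Kdi, mean Kit was 0.983 times that in WT (log2 -0.01, with overlap) and mean Cables1 1.99 times (log2 0.98, no overlap). Groups without overlap made up 6.79% of genes for lower values without PI3Kdi and 6.85% for higher values with it. The difference of the responses, FOXO1-GFP KO minus WT, was 0.78 for Kit and 0.51 for Cables1 on the log2 scale (SE 0.28 for each) and was not tested. Per kilobase, Cables1 exceeded Kit in every library. The ratio of their FPKM was 1.86, 2.14 and 2.39 in WT and 2.00, 3.42 and 2.26 in WT+PI3Kdi. Without FOXO1 it was 8.09, 3.41 and 7.21 with vehicle and 4.92, 4.55 and 5.74 with PI3Kdi, so it was highest in 2 vehicle libraries without FOXO1, where Kit was lowest.

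An antisense gene, Gm6277, overlaps exons of Cables1 on the minus strand. Its FPKM was 0.05, 0.08 and 0.11 in WT, 0.05, 0.15 and 0.19 in WT+PI3Kdi. Without FOXO1 it was 0.21, 0.13 and 0.46 with vehicle, and 0.44, 0.46 and 0.82 with PI3Kdi. These values rest on 4 to 64 reads a library. In FOXO1-GFP KO its log2 difference with PI3Kdi was 0.93, with a limma adjusted p of 0.847 without and 0.00796 with the replicate block. In WT it was 0.31, with adjusted p of 1 and 0.298. Gm6277 was thus called in FOXO1-GFP KO with the block, a fit that called 2.79% of all genes, and not without it. The libraries were made with a stranded kit, but the strand setting used in counting was not given in the sources used here. Without it, how reads in the exons that Cables1 and Gm6277 share were assigned is not known. No annotated gene overlaps Kit. Of the 6 nearest tested genes around Kit, at 276 to 1043 kb, and the 5 around Cables1 beside Gm6277, at 18.8 to 223 kb, 0 were called by limma for PI3Kdi in WT or in FOXO1-GFP KO, whether or not the block was used, again near the background of 0.0979% and 0.0452% of all genes without the block and 2.57% and 2.79% with it. Their differences spanned -0.20 to 0.42 around Kit, with the upper end from Kdr, another receptor tyrosine kinase at 0.01 to 0.07 FPKM, and -0.22 to 0.19 around Cables1.

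Of 54 listed genes of the Kit pathway, 42 were in the table, and the limma fit called 0 for the WT response and 0 for that of FOXO1-GFP KO, where it called 0.0979% and 0.0452% of all genes, shares at which 0 of 42 is no result about the pathway. An unadjusted p under 0.05 was reached by 2 and 4 of them, and by 5.14% and 5.17% of all genes, and voom on estimated reads also called 0 and 0. The median log2 difference was -0.04 in each genotype, with 20 and 19 of 42 positive. Over all genes it was -0.04 for WT and -0.02 for FOXO1-GFP KO, with 39.9% and 46.6% positive. The ligand Kitl and the receptor relatives Flt3, Csf1r, Pdgfra and Pdgfrb were not in the table, which held genes past a filter on low counts.

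Among adaptors and effectors of the receptor, 25 of 26 were in the table, with medians of 0.01 for WT and -0.03 for FOXO1-GFP KO and 14 and 11 of 25 positive. Gab2, an adaptor that recruits PI3K and SHP2 to receptors, was the 1 gene of the pathway that limma called in WT with the block, a fit that called 2.57% of all genes in either direction. Its FPKM was 1.59, 0.76 and 0.81 in WT and 2.19, 1.38 and 1.57 in WT+PI3Kdi, groups that overlapped, and each pair was higher with PI3Kdi (log2 difference 0.70, adjusted p 0.986 without and 0.0167 with the block). In FOXO1-GFP KO it was 1.04, 1.30 and 0.57, and with PI3Kdi 1.05, 1.28 and 0.77, a difference of 0.12. Pik3cd, which encodes the inhibited p110δ itself, had means of 153 FPKM in WT and 188 in WT+PI3Kdi, and without FOXO1 of 130 with vehicle and 142 with PI3Kdi (log2 differences 0.30 and 0.12). In WT its limma adjusted p was 0.0139 with the block, under the fold threshold. Stat5a and Stat5b, transcription factors activated by Kit and by IL-2, differed by 0.01 and 0.10 in WT and by 0.07 and 0.09 in FOXO1-GFP KO.

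Of negative regulators, 8 of 9 were in the table, with medians of -0.12 and -0.11 and 2 and 3 of 8 positive. Cbl and Cblb, ubiquitin ligases that bring about receptor degradation, differed by -0.18 and 0.00 in WT and by -0.29 and -0.08 in FOXO1-GFP KO. Of 14 transcription factors and cofactors listed as regulators of Kit, 9 were in the table, with medians of -0.06 and 0.01. Gata2, a GATA factor of progenitors and mast cells, was not in the table. Gata1, its erythroid and mast cell relative, was the 1 gene of the pathway that limma called in FOXO1-GFP KO with the block, where 2.79% of all genes were called. Its FPKM was 1.46, 0.89 and 0.83 without FOXO1 under vehicle and 1.57, 1.67 and 1.91 under PI3Kdi (log2 difference 0.68, limma adjusted p 0.571 without and 0.0157 with the block). These groups did not overlap, as for 5.28% of all genes. In WT it was 1.47, 1.52 and 1.46, and with PI3Kdi 1.42, 1.29 and 1.28. That difference was -0.15 and was not called (limma unadjusted p 0.453, adjusted p 0.588 with the block). Gata3 and Runx1, factors of the T cell lineage, differed by 0.06 and -0.08 in WT and by 0.09 and -0.05 in FOXO1-GFP KO. Myb, a factor of progenitors, differed by 0.01 and 0.02 with PI3Kdi, and its mean of 8.92 FPKM in FOXO1-GFP KO stood against 5.39 in WT (log2 difference 0.70, limma adjusted p 0.183).

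Of 22 listed partners of CABLES1, 20 were in the table, and limma called 0 in each genotype, with or without the block, with 1 and 2 at an unadjusted p under 0.05. Over all genes the shares called were 0.0979% and 0.0452% without the block and 2.57% and 2.79% with it, so that 0 of 20 is near the background. Medians were -0.01 and -0.03, with 9 of 20 positive in each. Cdk5 and Abl1, the kinases it links, differed by -0.05 and 0.17 in WT and by 0.23 and 0.08 in FOXO1-GFP KO. Its paralog Cables2 was at 7.54 FPKM in WT and 8.91 in WT+PI3Kdi (log2 difference 0.24, limma adjusted p 0.0316 with the block, under the fold threshold) and at 7.97 and 8.46 without FOXO1 (0.09). Trp53, encoding p53, differed by 0.07 and 0.09, and Wee1, the kinase that restrains CDK1 and CDK2, by 0.05 and -0.08. Cdkn1a, encoding the cell cycle inhibitor p21, was at 87.7 FPKM in WT and 71.7 in WT+PI3Kdi (log2 difference -0.29, limma adjusted p 0.449 without and 0.00395 with the block). It was under the fold threshold either way, and differed by -0.05 in FOXO1-GFP KO.

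**Figure D3:**
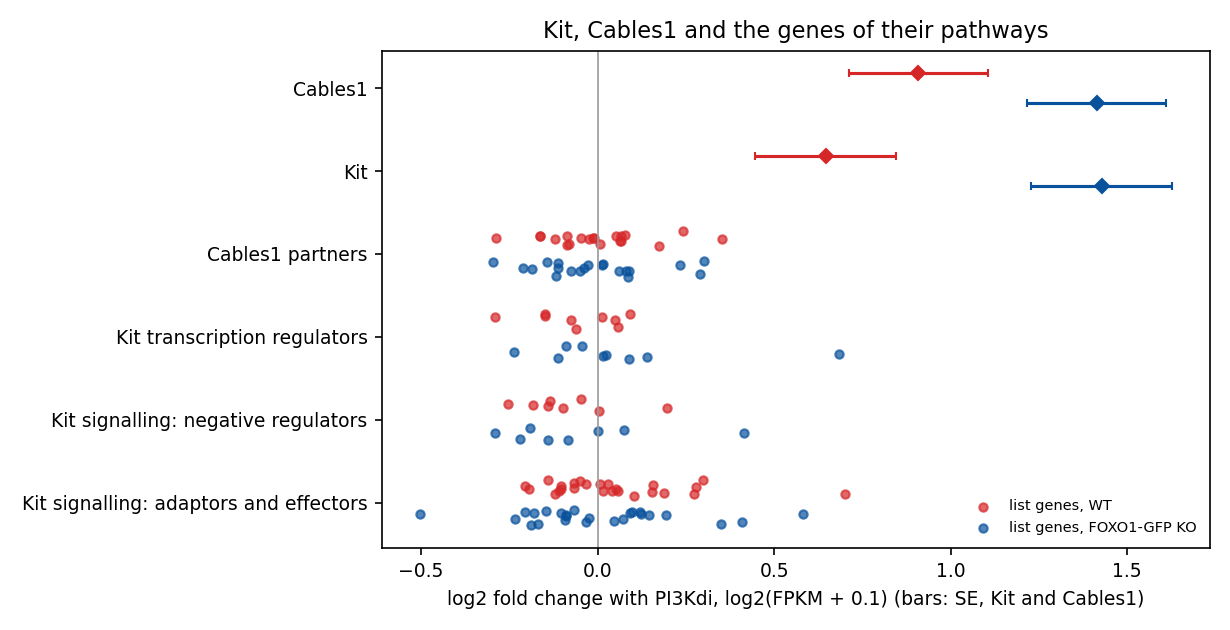
Difference with PI3Kdi in log2(FPKM + 0.1) (x axis) in WT (red) and FOXO1-GFP KO (blue) for Kit and Cables1 (diamonds, bars SE) and for the genes of 4 lists (points). The list genes centre on 0, with Gab2 in WT (0.70) and Gata1 in FOXO1-GFP KO (0.68) the farthest to the right.

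Kit also marks cells that a CD8 T cell culture might hold besides CTL, and markers of these were examined. All 9 CD8 T cell markers were in the table, summing to between 9337 and 13576 FPKM. Of 8 mast cell markers only Cpa3 was in the table, at 0.26 to 0.31 FPKM in WT, 0.30 to 0.39 in WT+PI3Kdi, 0.36 to 0.59 in vehicle FOXO1-GFP KO and 0.19 to 0.62 with PI3Kdi there, and of 7 markers of haematopoietic progenitors 0 were. Of 6 innate lymphoid cell markers only Il1rl1 was in the table, at 2.41 to 4.13 FPKM in WT, 2.98 to 5.57 in WT+PI3Kdi, 1.43 to 1.71 in vehicle FOXO1-GFP KO and 1.75 to 1.95 with PI3Kdi there. Of 5 NK cell markers only Klrb1c was, at 1.94 to 2.67, 2.11 to 2.64, 2.47 to 3.72 and 3.31 to 4.81 FPKM in the same order. The 3 of 6 dendritic cell markers summed to 6.82 to 8.84, 4.79 to 6.51, 4.95 to 6.23 and 4.35 to 5.62, without Xcr1, Clec9a and Zbtb46, and the 2 of 6 myeloid markers to at most 0.50 FPKM. The 3 of 7 B cell markers summed to 11.4 to 15.6, 15.3 to 19.5, 4.48 to 6.88 and 4.31 to 6.36, without Cd79a, Ms4a1 and Pax5, and the 3 of 4 CD4 T cell markers, without Foxp3, spanned 4.96 to 8.24. In vehicle, where Kit was lower without FOXO1, Il1rl1 and the dendritic and B cell sums were lower too without overlap. Of all single genes, 6.79% were lower in this way. Cpa3 was higher, by a narrow margin at low values (at most 0.31 FPKM in WT, at least 0.36 without FOXO1), and Klrb1c was higher with overlap. With PI3Kdi, where Kit was higher in both genotypes, the dendritic sum in WT was lower (4.79 to 6.51 against 6.82 to 8.84). Il1rl1 was higher with PI3Kdi in FOXO1-GFP KO without overlap, as for 5.28% of all genes. Every other marker value or sum overlapped between PI3Kdi and vehicle within a genotype. The part of these markers in the values of Kit was not tested, and the cells had been sorted as CD8+.

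The mRNA whose pattern was most like that of Kit over the 12 libraries, by Pearson r of log2(FPKM + 0.1) among 9774 genes, were Ubac2 (r = 0.905), Smap2 (0.880), Pdcd4 (0.877), Hbp1 (0.871) and Asb2 (0.867). Those most like Cables1 were P2ry14 (0.927), Insl6 (0.876), Plcl2 (0.872), Faap100 (0.870) and S100a1 (0.870). Kit and Cables1 were not close to each other: r was 0.544, which placed Cables1 526th for Kit and Kit 471st for Cables1. These correlations describe libraries that share the 4 groups, and those of the same number within a genotype also vary together. Pdcd4, an inhibitor of translation initiation, averaged 12.7 FPKM in WT and 25.1 in WT+PI3Kdi, and without FOXO1 it averaged 8.56 with vehicle and 16.2 with PI3Kdi. It rose by 0.98 and 0.91 on the log2 scale and was the 1 gene of the 10 that limma called in both genotypes without the block (adjusted p 0.0103 and 0.0286). Asb2, a ubiquitin ligase subunit, averaged 14.6, 22.3, 7.88 and 17.8 FPKM in the same order. Among genes like Cables1, S100a1, a calcium-binding protein, averaged 9.44, 17.2, 12.6 and 27.1 FPKM, and P2ry14, a receptor for UDP-sugars, 11.2, 14.6, 13.3 and 18.7, each highest in FOXO1-GFP KO+PI3Kdi. Ubac2 had the pattern of Kit on a small scale, with means of 32.3, 39.1, 30.4 and 37.8 FPKM.

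**Figure D4:**
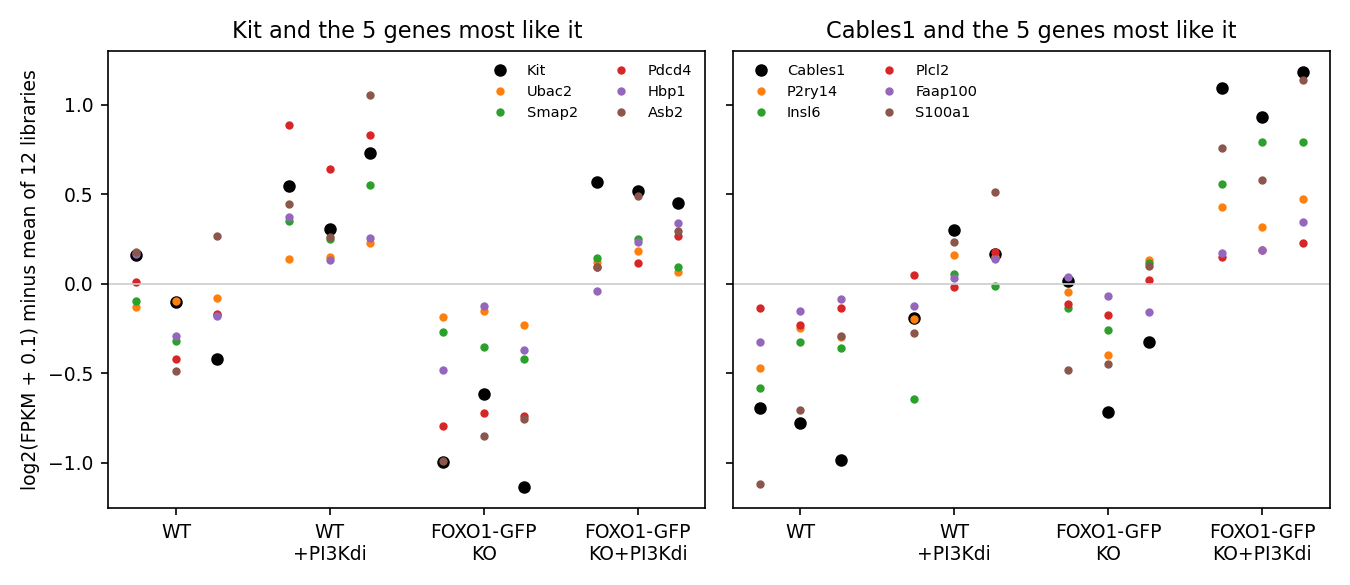
log2(FPKM + 0.1) minus the mean of 12 libraries (y axis) for Kit (left) and Cables1 (right), in black, and the 5 mRNA with the highest Pearson r to each, in colour, by group and replicate. The Kit points are lowest in FOXO1-GFP KO and above 0 in all 6 inhibitor libraries; the Cables1 points are highest in FOXO1-GFP KO+PI3Kdi and lowest in WT except for replicate 2 of FOXO1-GFP KO.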

How the data were processed

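RNA of sorted CTL was made into stranded mRNA libraries from 300 ng and sequenced from both ends. The authors aligned reads with STAR 2.7.1a to GRCm38.p6, counted them per Ensembl gene, removed genes with low counts, scaled with TMM and deposited FPKM over summed exon length, rounded to 2 decimals. FPKM are not counts, so log2(FPKM + 0.1) was fitted with limma 3.58.1 in R 4.3.3: 4 group means, empirical Bayes with a mean-variance trend, adjusted over 13283 genes. A gene was called at an adjusted p under 0.05 and a fold change over 1.5. Depth, which here includes the TMM scaling, and reads per gene were recovered from steps in the FPKM of 298 genes of at most 400 bp. In each library 98.5% to 100% of held-out values were then near whole reads, against 20.0% to 33.8% by chance. Near meant within 0.1 read, or within a wider margin where rounding of the FPKM made the value less exact.

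Replicate numbers come from the labels, which call the replicates biological and do not say that a number marks a shared mouse. Deviations from group means correlated at 0.596 to 0.838 between same-numbered libraries in WT and at 0.594 to 0.780 in FOXO1-GFP KO, against -0.409 to 0.730 across genotypes, so the block was set within genotype (consensus correlation 0.757).

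The genes and lists were chosen with earlier results of these data known. A marker gene of the lists is not reported here. Named were Kit, Cables1, Foxo1, list members called with or without the block, 16 list members by role, the 5 genes most like each by Pearson r with a mean of at least 1 FPKM in a group and not gene models, and the 3 nearest genes on each side; Irs2, Kdr and the called rises past the first one outside the choice were named after their values were seen. Alternatives changed the pseudocount, filter, trend, scaling, samples, block and method (voom on estimated reads).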

Additional observations from a re-analysis of the deposited data

How the results depend on the processing

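The PI3Kdi difference of Kit in WT was past the threshold with the block within genotype (0.65) and with voom and the block (0.72), and not with the block as fixed terms (adjusted p 0.0765). That of Cables1 was past it when blocked within genotype (0.91), with fixed block terms (0.91) and under voom with the block (0.95), and also with the block when WT pair 1, 2 or 3 was left out (1.11, 0.82 and 0.79), an omission chosen after seeing the data. Without a block, leaving out a replicate gave 0.49 to 0.79 for Kit and 0.80 to 1.05 for Cables1, never called, and other pseudocounts, filters, scalings and voom kept the direction and the lack of a call.

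The mRNA called in WT numbered 13, against 342 with the block, 254 with fixed block terms, 405 with voom and the block, 22 with voom alone, 0 from the 6 WT libraries alone (683 at an unadjusted p under 0.05 in the fit of 12), and 225, 244 and 224 with the block but no WT pair 1, 2 or 3. Leaving out 1 replicate gave 1 to 10. In FOXO1-GFP KO they numbered 6, against 370, 328 and 499 with the 3 forms of the block in the same order, and 0 from its 6 libraries alone; leaving out 1 replicate gave 0 to 2. Each form of the block called 1 gene of the Kit pathway in each genotype, against 0. A pseudocount of 1 FPKM lowered the difference in WT to 0.34 for Kit, under the fold threshold, and 0.64 for Cables1, and that in FOXO1-GFP KO to 0.64 and 1.12. Depth limits low values: Kit had as few as 33 reads in a library and Gm6277 as few as 4.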
